A study of Homo sapiens with 6 samples.

Results

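The calcium and calmodulin dependent protein kinases (CaM kinases) and the inhibitors of CaM kinase II were followed by RNA sequencing in PC3, an established cell line from a human prostate cancer. The 10 genes are the inhibitors CAMK2N1 and CAMK2N2, and the CaM kinase II genes CAMK2A, CAMK2B, CAMK2D and CAMK2G. With them are CAMK1 and CAMK1D of the CaM kinase I family, CAMK4, and CAMKK2, an upstream kinase. They were found by symbol among the 62700 genes of the count table, and all 10 were present once. CAMK2N1 was picked from the comparison described here, as one of its largest falls, and the other 9 were taken as its family with the results already known. The changes of the 10 genes are therefore a description without a test of their own.

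Cells with a control shRNA were compared with cells whose shRNA targets the ubiquitin ligase gene TTC3. An shRNA is a hairpin-shaped RNA that lowers the messenger RNA it pairs with. The labels give the genotype as WT for the control shRNA cells and as TTC3 knockdown for the others, and each group held 3 libraries. All cells grew in F-12K medium with serum, and total RNA was depleted of ribosomal RNA. The titles read shNC and shTT3, while the library names read shNC1, shNC2 and shNC3, and shTT1, shTT2 and shTT3. Neither says how many TTC3 hairpins were used. The labels do not say whether lines were clonal, when cells were collected, or whether libraries came from separate cultures. The p-values thus rest on library-to-library spread alone, and that spread may be technical. In bulk RNA, fewer cells of a kind and less RNA per cell cannot be told apart.

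Calcium entering a cell binds calmodulin, and the complex activates this kinase family. CaM kinase II is assembled from alpha, beta, gamma and delta subunits into a large holoenzyme that phosphorylates itself and can stay active after calcium falls. CAMK2N1 and CAMK2N2 encode small proteins that bind active CaM kinase II and block it. CaM kinase I and CaM kinase IV work as single chains and need phosphorylation by a CaM kinase kinase such as CAMKK2, which also phosphorylates the energy sensor AMPK. CAMKK2 is a known androgen receptor target in prostate cancer, and CAMK2N1 has been reported to restrain growth of prostate cancer cells.

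Both inhibitor genes are small and related, so their coding sequences are shown to let a reader see how far their reads can be told apart. They were read from the GENCODE 29 transcripts ENST00000375078.3 and ENST00000296238.3, 5′ to 3′ from the start codon to the last sense codon. Capitals mark the longest run of bases that both share.

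CAMK2N1: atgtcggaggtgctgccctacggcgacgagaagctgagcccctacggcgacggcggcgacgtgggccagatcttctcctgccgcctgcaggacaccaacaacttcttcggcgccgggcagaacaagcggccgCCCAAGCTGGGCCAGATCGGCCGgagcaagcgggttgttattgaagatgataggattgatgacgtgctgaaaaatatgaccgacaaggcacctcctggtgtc
CAMK2N2: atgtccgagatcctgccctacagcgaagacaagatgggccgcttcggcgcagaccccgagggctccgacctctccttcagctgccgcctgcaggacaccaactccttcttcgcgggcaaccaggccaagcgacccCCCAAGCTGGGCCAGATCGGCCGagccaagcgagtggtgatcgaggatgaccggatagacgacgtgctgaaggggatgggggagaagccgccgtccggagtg

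The coding sequences are 234 and 237 bases long, and 170 of 237 aligned positions were identical (71.7%). The shared run of 23 bases spans positions 133 to 155 of CAMK2N1 and 136 to 158 of CAMK2N2, counted from the first coding base, and no longer run was shared anywhere in the whole transcripts. Among the longest coding sequences of the CaM kinase II genes, the longest shared run was 19 bases for CAMK2A with CAMK2G and 35 bases for CAMK2A with CAMK2B. The read length is not given in the sources used here.

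Libraries held 143246356 to 155526861 counts, and 24325 genes had enough counts to be tested. TTC3 itself was at 687 ± 7.86 CPM in control libraries (CPM, counts relative to library size scaled by the trimmed mean of M values, TMM; SD, n = 3) and at 196 ± 27.5 CPM in TTC3 shRNA libraries, a log2 fold change of -1.81 ± 0.10 (SE). Of the epithelial markers KRT8, KRT18, KRT19, EPCAM and CDH1, 2 of 5 were higher and 1 lower, with sums of 639 to 680 CPM in control and 655 to 1011 CPM in TTC3 shRNA libraries. Of 6 prostate luminal markers 4 were tested, with 1 higher and 3 lower and sums of 393 to 413 and 540 to 702 CPM. The prostate factor HOXB13 was at 363 CPM in control cells, while the luminal genes KLK2 and KLK3 had no counts in any library. Summed fibroblast markers (COL1A1, COL1A2, DCN, LUM and PDGFRA; 2 of 4 tested were higher and 1 lower) ran from 34.6 to 37.2 CPM in control libraries and from 99.1 to 152 CPM in TTC3 shRNA libraries, with DCN at means of 0.0290 and 0.0272 CPM. Summed neuronal markers (RBFOX3, SNAP25, SYT1, TUBB3 and NEFL; 1 of 3 tested was lower) ran from 429 to 434 and from 306 to 442 CPM, with RBFOX3 and SNAP25 near 0. Immune markers summed to 1.02 to 1.13 and 0.325 to 0.397 CPM (1 of 1 tested lower), and endothelial markers to 45.5 to 46.8 and 55.2 to 62.2 CPM (1 of 3 tested higher, 1 lower), with CDH5 at no counts. Their part in the changes below was not tested. TTC3 shRNA replicate 1 stood apart from replicates 2 and 3, with mitochondrial genes taking 6.29% of its counts against 3.73% and 3.54%, and 5.29% to 5.53% in control libraries.

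All 10 genes passed the filter on low counts, CAMK2A through its control libraries alone. With a threshold of 0.05 for the adjusted p over all tested genes (edgeR quasi-likelihood test, Benjamini-Hochberg), 3 of 10 were higher (CAMK2B, CAMK2D and CAMK1) and 3 were lower (CAMK2N1, CAMK2A and CAMK1D) in TTC3 shRNA cells. Of all tested genes, 33.6% passed, 15.7% higher and 17.8% lower. The library values of the 2 groups did not overlap for 8 of the 10 genes, against 50.3% of all tested genes. Since the comparison itself brought CAMK2N1 into view, nothing is read from these shares. The median log2 fold change was 0.21 over the 10 genes and -0.02 over all tested genes. Without TTC3 shRNA replicate 1 the number higher was 6, joined by CAMK2N2, CAMK2G and CAMKK2, while 26.3% of all tested genes were then higher.

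**Figure D1:**
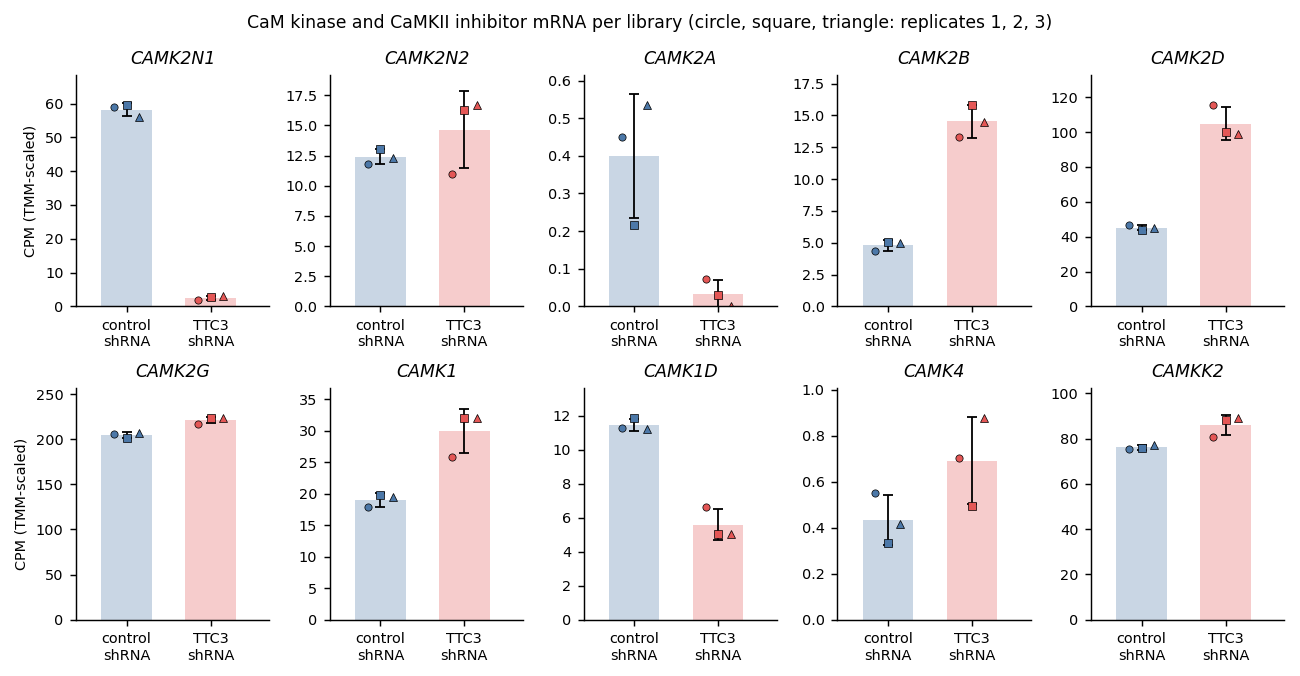
Expression of each of the 10 genes in CPM (vertical axes, each from 0 and on its own scale) in 3 control shRNA and 3 TTC3 shRNA libraries. Bars are means, whiskers SD and symbols single libraries; CAMK2N1 drops from a mean of 58.2 to 2.53 CPM, while CAMK2B and CAMK2D are higher in every TTC3 shRNA library.

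The inhibitor CAMK2N1 lost nearly all of its mRNA. CAMK2N1 (ENSG00000162545.6, protein-coding, GRCh38 chromosome 1, 20482391 to 20486220, minus strand) was at 58.8, 59.6 and 56.1 CPM in control libraries and 1.90, 2.73 and 2.97 CPM in TTC3 shRNA libraries. The groups lay far apart, and the lowest control library was above every TTC3 shRNA library. The estimated counts were 9428, 9627 and 8386 against 287, 374 and 426, so counting error was small in both groups. The TTC3 shRNA mean was 4.35% of control, and the log2 fold change was -4.52 ± 0.17 (SE). It ran from -4.69 to -4.34 over 15 other settings and kept its call in all of them. A single transcript, ENST00000375078.4, held 100% of the CAMK2N1 count in each library, and no other annotated gene overlapped it.

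CAMK2N2, which encodes the other inhibitor, did not pass the test. CAMK2N2 (ENSG00000163888.4, chromosome 3, 184259213 to 184261463, minus strand) was at 11.8, 13.1 and 12.3 CPM in control libraries and 11.0, 16.3 and 16.7 CPM in TTC3 shRNA libraries. The first TTC3 shRNA library lay below all controls and the other two above them. Its log2 fold change of 0.24 ± 0.16 did not pass, and the sign turned (-0.08) when each library's trend with transcript length was removed. CAMK2N2 overlaps EEF1AKMT4, a methyltransferase gene on the opposite strand, which held 2907, 3379 and 3045 counts in control libraries against 3315, 4740 and 5771 in TTC3 shRNA libraries. The library kit keeps strand, but whether counting used it is not given in the sources used here, so the CAMK2N2 level is uncertain.

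The gamma subunit gene carried most CaM kinase II mRNA in both groups. CAMK2G (ENSG00000148660.22, chromosome 10, 73812501 to 73874591) was at 206, 201 and 207 CPM in control libraries and 217, 223 and 223 CPM in TTC3 shRNA libraries. The groups did not overlap, but the shift was small, with a log2 fold change of 0.11 ± 0.06 that did not pass and was -0.01 with scaling by library totals alone. Its leading transcript, ENST00000351293.7, held 44.8% ± 2.94 of the gene's estimate in control libraries and 47.4% ± 2.19 in TTC3 shRNA libraries (SD, n = 3 each). ENST00000322635.7, by contrast, took 13.5%, 4.05% and 1.29% across the 3 control replicates alone, so the estimate of this isoform varied widely between replicates. Another, ENST00000322680.7, was steady at 16.1% ± 0.730 in control libraries.

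The delta subunit gene rose. CAMK2D (ENSG00000145349.20, chromosome 4, 113451032 to 113761927) was at 46.6, 43.6 and 45.0 CPM in control libraries and 116, 100.1 and 98.9 CPM in TTC3 shRNA libraries. All TTC3 shRNA libraries were above all controls, and replicate 1 was the highest. The log2 fold change was 1.22 ± 0.08, which is 2.33-fold, and kept its call under all 15 other settings. Only 17.8% to 34.4% of the CAMK2D count lay in transcripts that GENCODE 29 holds by identifier, so isoforms of this gene are not described.

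The beta subunit gene rose further from a lower level. CAMK2B (ENSG00000058404.21, chromosome 7, 44217150 to 44334577) was at 4.31, 5.07 and 5.01 CPM in control libraries and 13.3, 15.8 and 14.5 CPM in TTC3 shRNA libraries. Every TTC3 shRNA library was above every control, and the log2 fold change was 1.60 ± 0.11, with the same call under all 15 other settings. The transcript ENST00000395749.7 held 67.1% ± 2.03 of its estimate in control libraries and 71.6% ± 1.44 in TTC3 shRNA libraries.

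The alpha subunit gene, best known from neurons, was close to the limit of detection. CAMK2A (ENSG00000070808.17, chromosome 5, 150219491 to 150290291) had 72, 35 and 80 counts in control libraries against 11, 4 and 0 in TTC3 shRNA libraries. All controls were above all TTC3 shRNA libraries, and control replicate 2 was the lowest control at 0.217 CPM. The log2 fold change of -3.51 ± 0.82 passed, but the call ended without control replicate 1, control replicate 3 or TTC3 shRNA replicate 2, with values from -4.71 to -2.93 over 14 other settings. None of the CAMK2A counts lay in transcripts that GENCODE 29 holds by identifier.

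**Figure D2:**
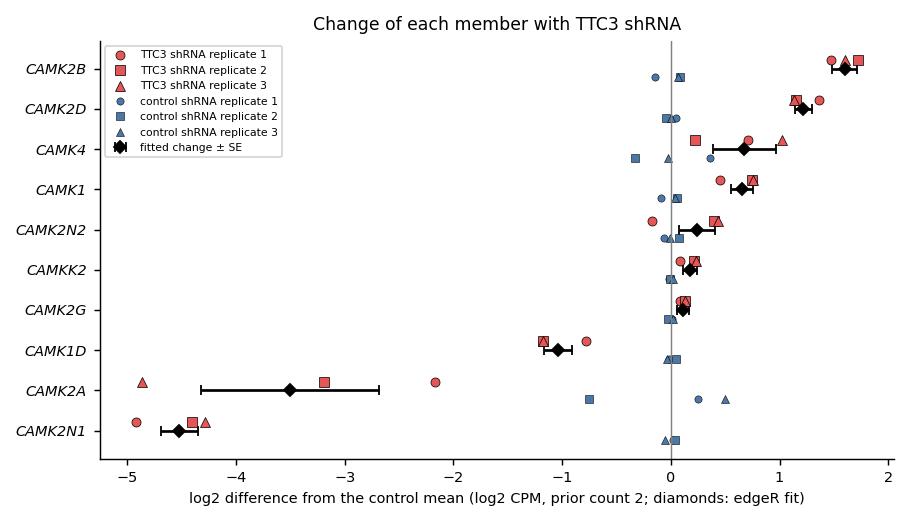
Log2 difference from the control mean (horizontal axis) for each gene: black diamonds are fitted changes with SE, red symbols the TTC3 shRNA libraries and blue symbols the control libraries. CAMK2N1 lies at -4.52, and CAMK2B and CAMK2D lie at 1.60 and 1.22 with their libraries close together, while the CAMK2A libraries scatter widely.

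The CaM kinase I genes moved in opposite directions. CAMK1 (ENSG00000134072.11, chromosome 3, 9757342 to 9769992), the alpha form, was at 17.8, 19.7 and 19.4 CPM in control libraries and 25.9, 31.9 and 32.0 CPM in TTC3 shRNA libraries. It rose by 0.66 ± 0.10 on the log2 scale, and by 0.37 in the setting that gave it least. The DNA repair gene OGG1 overlaps CAMK1 on the opposite strand, at 3592, 3911 and 3499 counts in control libraries against 4479, 4360 and 4654 in TTC3 shRNA libraries, so part of the CAMK1 estimate is uncertain.

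CAMK1D (ENSG00000183049.14, chromosome 10, 12349482 to 12835545), the delta form, was at 11.3, 11.9 and 11.2 CPM in control libraries and 6.65, 5.06 and 5.05 CPM in TTC3 shRNA libraries. The mean fell to 48.7% of control, with a log2 fold change of -1.04 ± 0.13, and the groups were well separated. Its long transcript ENST00000619168.5 held 95.3%, 90.7% and 93.7% of the CAMK1D estimate in control libraries against 94.3%, 89.5% and 85.9% in TTC3 shRNA libraries, so both groups used mainly the same isoform. The calls of CAMK1 and CAMK1D held under all 15 other settings. PNCK and CAMK1G, relatives outside the 10, are counted with the other calmodulin-linked kinases below. PNCK was lower, with 71, 68 and 74 counts in control libraries against 18, 8 and 32 in TTC3 shRNA libraries. Its log2 fold change was -1.75 ± 0.44 (edgeR adjusted p = 0.0217), while that of CAMK1G, -0.17 ± 0.57, did not pass.

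CAMK4 and CAMKK2 did not pass. CAMK4 (ENSG00000152495.11, chromosome 5, 111223653 to 111494886), a kinase of lymphocytes and neurons, had 88, 54 and 62 counts in control libraries against 106, 68 and 126 in TTC3 shRNA libraries. The groups overlapped, and the log2 fold change was 0.68 ± 0.29. The antisense gene AC010275.1 inside it had more counts than CAMK4 in 4 of 6 libraries, and ranged from 66 to 173, so even this low level is uncertain.

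CAMKK2 (ENSG00000110931.19, chromosome 12, 121237691 to 121298308), a kinase above CaM kinases I and IV, was at 75.2, 75.8 and 77.1 CPM in control libraries and 80.7, 88.1 and 89.0 CPM in TTC3 shRNA libraries. The libraries did not overlap, but the log2 fold change of 0.18 ± 0.06 did not pass the threshold. It passed without TTC3 shRNA replicate 1 and with DESeq2. The transcript ENST00000404169.8 led the CAMKK2 estimate in every library, at 72.7% to 88.3%. CAMKK1, its relative outside the 10, was at 10.8 ± 0.518 CPM in control and 13.4 ± 1.62 CPM in TTC3 shRNA libraries. The libraries did not overlap there either, and the log2 fold change of 0.31 ± 0.11 did not pass (edgeR adjusted p = 0.0648).

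To set genes beside each other, CPM was divided by transcript length in kb. In control cells CAMK2G was highest at 56.4 ± 0.842 CPM per kb, followed by CAMKK2 at 31.1 ± 0.399 and CAMK2N1 at 24.9 ± 0.783 (SD, n = 3). CAMK1 stood at 12.8 ± 0.701, CAMK2D at 11.5 ± 0.387 and CAMK2N2 at 9.11 ± 0.458 CPM per kb, and CAMK1D, CAMK2B, CAMK2A and CAMK4 followed in that order. No neighbours in that order overlapped in their control libraries.

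In TTC3 shRNA cells CAMK2G and CAMKK2 stayed at the head, at 61.0 ± 0.975 and 35.2 ± 1.87 CPM per kb. CAMK2D followed at 26.8 ± 2.39, above CAMK1 at 20.1 ± 2.36, and CAMK2N1 was seventh of the 10 at 1.08 ± 0.239. Only CAMK2N1 and the next gene, CAMK1D at 0.731 ± 0.120 CPM per kb, overlapped in their libraries. With the longest annotated transcript as the length, CAMK2N1 ranked the second instead of the third in control cells, because CAMKK2 was at 13.6 CPM per kb, and CAMK1 ranked the second in TTC3 shRNA cells. The place of CAMK2D rests on the minority of its counts that gave a transcript length.

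Summed over the 4 subunit genes, CaM kinase II mRNA was 70.0, 68.1 and 70.1 CPM per kb in control libraries against 93.1, 91.4 and 90.9 in TTC3 shRNA libraries. The CAMK2G share of that sum was 81.3% ± 0.227 in control and 66.5% ± 1.89 in TTC3 shRNA cells, and the CAMK2D share 16.6% ± 0.371 and 29.2% ± 2.23. CAMK2B held 1.87% ± 0.181 and 4.28% ± 0.415. Subunit mRNA was thus higher in total and had a larger part from the delta and beta genes.

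The inhibitor sum moved the other way, from 34.0 ± 1.04 to 11.9 ± 2.58 CPM per kb. CAMK2N1 made up 73.2% ± 0.967 of it in control cells and 9.15% ± 0.243 in TTC3 shRNA cells. The rest is CAMK2N2, whose level is uncertain beside EEF1AKMT4, so the TTC3 shRNA sum and the ratio below carry that uncertainty. The ratio of inhibitor to CaM kinase II mRNA was 0.484, 0.516 and 0.471 in control libraries against 0.0954, 0.144 and 0.149 in TTC3 shRNA libraries. The mean ratio was 3.79-fold lower with TTC3 shRNA, and 5.48-fold lower on counts not divided by length. These are ratios of mRNA, and protein was not measured.

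**Figure D3:**
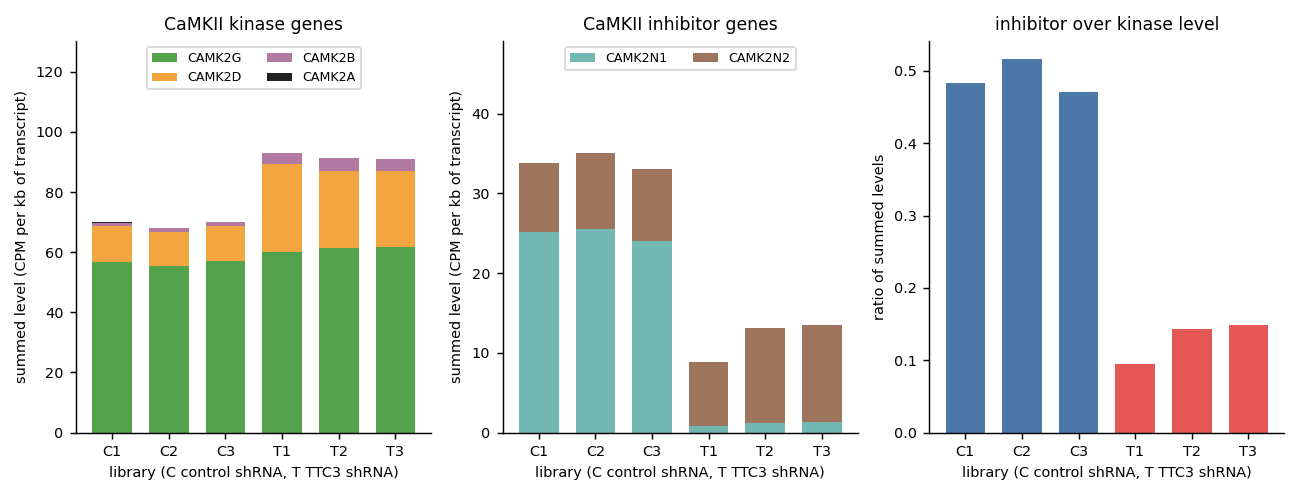
Summed level of the CaM kinase II genes (left) and of their inhibitors (middle), both in CPM per kb of transcript, and the ratio of the sums (right), for each control (C) and TTC3 shRNA (T) library. The kinase sum is 68.1 to 70.1 in control and 90.9 to 93.1 in TTC3 shRNA libraries, and the ratio falls from 0.471 or more to 0.149 or less.

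No tested gene around CAMK2N1 passed as lower. Of 28 genes with a start within 500 kb, 9 were tested, all on the side of higher coordinates, and 0 were lower while 2 were higher. MUL1, a mitochondrial ubiquitin ligase whose start is 21.9 kb away, ran from 32.2 to 35.1 CPM over the controls and from 31.5 to 37.0 CPM over the TTC3 shRNA libraries, so the groups overlapped. PINK1, a mitochondrial quality-control kinase 147 kb away, rose from 59.8 ± 1.49 to 87.3 ± 9.15 CPM (log2 fold change 0.55 ± 0.09, edgeR adjusted p = 0.00381).

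The other protein-coding neighbours gave smaller or less certain differences. FAM43B passed at a very low level (0.0191 against 0.150 CPM, edgeR adjusted p = 0.0347), a call that ended under 6 of 14 other settings. It passed the filter on low counts only through the TTC3 shRNA libraries, where it is high, so the filter favoured this call. CDA, DDOST, KIF17, SH2D5 and HP1BP3 had log2 fold changes of 0.13 to 0.37 and edgeR adjusted p of 0.0577 to 0.293. CDA became lower with the length trend removed (-0.21, adjusted p = 0.0444). At an unadjusted p under 0.05, no tested neighbour was lower.

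**Figure D4:**
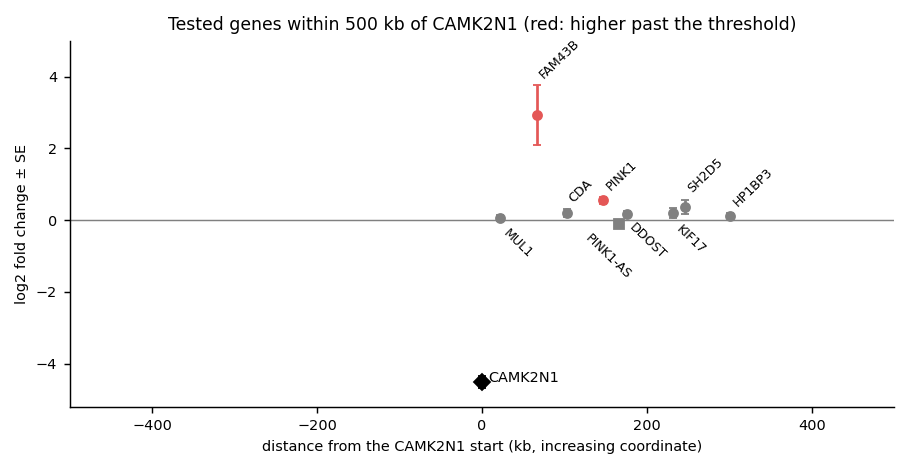
Log2 fold change with SE (vertical axis) of the 9 tested genes within 500 kb of CAMK2N1 against distance from its start in kb; circles are protein-coding genes, the square is an antisense gene. CAMK2N1 lies at -4.52 and its neighbours lie between -0.10 and 0.55, except FAM43B at 2.92.

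The genes with profiles most like that of CAMK2N1 were found over the 6 libraries by the distance between log2 CPM values, each centred on its own mean, among 10789 protein-coding genes with a mean of at least 5 CPM over the 6 libraries. BST2, NNMT and CXCL5 met that minimum through the control libraries, where they are high. They were BST2, an antiviral membrane protein, at a distance of 0.218 log2 units, NNMT, a nicotinamide methyltransferase, at 0.346, and the chemokines CXCL5 at 0.451 and CXCL8 at 0.551. The stress cytokine GDF15 was the fifth at 0.781. Their TTC3 shRNA means were 3.81% to 6.77% of control, against 4.35% for CAMK2N1. With only 2 groups, this likeness mostly reflects the size of the fall.

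Around the kinases, 102 genes of calcium and calmodulin signalling were listed, of which 89 were tested, 17 were higher and 22 lower, where 15.7% of all tested genes were higher and 17.8% lower. The counts of each list below stand against the same shares, and nothing particular to a list is read from them. DCLK1, PNCK, RCAN2, RYR1 and CACNA1B passed the filter on low counts through their control libraries alone, where they are high, which favours their calls. The median log2 fold change of the 89 tested pathway genes was -0.07, against -0.02 over all tested genes. With scaling by library totals alone, 9 pathway genes were higher and 29 lower, against 2518 and 5356 of all 24325 tested genes. The median of all genes then moved to -0.15. Leaving out control replicate 1, 2 or 3 gave 8, 8 and 7 pathway genes higher. Over all genes then tested (25037, 25088 and 25176), the calls also fell, to 1835, 1869 and 1876 higher. Leaving out TTC3 shRNA replicate 1 gave 30 higher, while over all 25416 genes then tested the calls also grew, to 6674 higher and 7065 lower. Leaving out TTC3 shRNA replicate 2 gave 11 pathway genes higher, against 2200 of all 25447 genes then tested. Without control replicate 1, 13 pathway genes were lower, against 2711 of all genes then tested. Without TTC3 shRNA replicate 1, 35 pathway genes were lower.

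The calmodulin genes CALM2 and CALM3 did not pass the test. CALM2 was at 178 ± 1.97 CPM in control and 179 ± 14.1 CPM in TTC3 shRNA cells, and CALM3 at 183 ± 5.62 and 185 ± 6.82 CPM (SD, n = 3). Both encode the same protein, and calmodulin genes have pseudogenes, so single levels are uncertain. Of 8 tested genes of calmodulin and its binding buffers, 1 was higher and 1 lower. NRGN, neurogranin, which holds calcium-free calmodulin, rose by 0.79 ± 0.17 on the log2 scale (edgeR adjusted p = 0.0120), from 31.3 to 54.2 CPM. CALML4, a calmodulin-like gene, fell by 0.63 ± 0.15 (edgeR adjusted p = 0.0160). Both calls ended without control replicate 1 or 3, and that of CALML4 also without TTC3 shRNA replicate 2.

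Other calmodulin-linked kinases had 1 of 16 tested members higher and 5 lower. MYLK, the myosin light chain kinase, fell from 30.4 ± 1.08 to 21.1 ± 0.850 CPM (edgeR adjusted p = 0.00162), and the death-associated kinase DAPK2 from 4.56 ± 0.268 to 2.88 ± 0.0959 CPM (edgeR adjusted p = 0.00481). EEF2K, which slows translation by phosphorylating elongation factor EEF2, rose from 25.1 ± 0.788 to 34.6 ± 2.25 CPM (edgeR adjusted p = 0.00361). DCLK1, a doublecortin-like kinase, had 43, 57 and 32 counts in control libraries against 0, 6 and 0 in TTC3 shRNA libraries (edgeR adjusted p = 0.0150), a call that ended without control replicate 1 or 2.

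Calcineurin and NFAT genes, the phosphatase branch of calmodulin signalling, had 7 of 15 members higher and 3 lower, with a median of 0.15. The transcription factors NFATC4 and NFATC1 rose by 2.71 ± 0.36 and 1.33 ± 0.18 on the log2 scale (edgeR adjusted p = 0.00196 and 0.00197), to 0.921 and 1.86 CPM. The calcineurin inhibitor RCAN1, itself a well-known calcineurin and NFAT target, fell from 41.4 ± 1.08 to 30.6 ± 1.62 CPM (edgeR adjusted p = 0.00325). Its relative RCAN2 fell by 2.63 ± 0.49 on the log2 scale (edgeR adjusted p = 0.00702) from 0.308 CPM. RCAN2 had only 57, 55 and 34 counts in control libraries against 3, 7 and 11 in TTC3 shRNA libraries. Further relatives are named after their values were seen. RCAN3 rose from 22.8 ± 0.988 to 27.8 ± 1.26 CPM (edgeR adjusted p = 0.0202), unlike RCAN1 and RCAN2. NFATC2 rose from 52.8 ± 1.16 to 61.3 ± 3.81 CPM (edgeR adjusted p = 0.0452), as NFATC1 and NFATC4 did. NFAT5 fell from 196 ± 3.74 to 111 ± 31.1 CPM (edgeR adjusted p = 0.0133).

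Substrates and phosphatases of the CaM kinases had 3 of 20 members higher and 6 lower, with a median of -0.01. CaM kinases send the class IIa histone deacetylases out of the nucleus. Of these, HDAC9 fell from 34.8 ± 0.441 to 15.1 ± 2.69 CPM (edgeR adjusted p = 0.000683) and HDAC4 rose from 28.1 ± 0.503 to 46.6 ± 3.91 CPM (edgeR adjusted p = 0.000743). HDAC5 and HDAC7 did not pass, with log2 fold changes of 0.19 ± 0.09 and 0.31 ± 0.11 (edgeR adjusted p = 0.146 and 0.0685). The CREB coactivator CRTC3 fell by 0.66 ± 0.09 on the log2 scale (edgeR adjusted p = 0.00200).

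AMPK subunits, the other target of CAMKK2, had 0 of 6 tested members higher and 2 lower, with a median of -0.24. The beta subunit gene PRKAB2 fell from 36.7 ± 0.628 to 23.7 ± 2.75 CPM (edgeR adjusted p = 0.00265). PRKAB1 fell by 0.21 ± 0.06 on the log2 scale (edgeR adjusted p = 0.0344), a call that ended without any of the 3 control replicates, without TTC3 shRNA replicate 2 or 3, and with the replicate number as a block.

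Calcium release channels, entry channels and pumps had 5 of 24 tested members higher and 5 lower, with a median of -0.10. ORAI1, the pore of store-operated calcium entry, rose from 31.9 ± 0.576 to 47.4 ± 5.64 CPM (edgeR adjusted p = 0.00455). The ryanodine receptor gene RYR1 fell from 0.850 ± 0.0137 to 0.0934 ± 0.0303 CPM (edgeR adjusted p = 0.000312). ATP2A1, a calcium pump gene of low level, fell from 2.76 ± 0.205 to 1.20 ± 0.274 CPM (edgeR adjusted p = 0.00412). Its relatives did not fall with it. ATP2A2, far higher at 490 ± 4.05 and 463 ± 32.0 CPM, did not pass (edgeR adjusted p = 0.401). ATP2A3 rose from 0.655 ± 0.114 to 1.44 ± 0.315 CPM (edgeR adjusted p = 0.00916). CACNA1B, a neuronal calcium channel, had 287 counts summed over controls and 2 summed over TTC3 shRNA libraries, giving a scaled ratio of 131 (95% exact interval 36.1 to 1090, for counting error only).

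**Figure D5:**
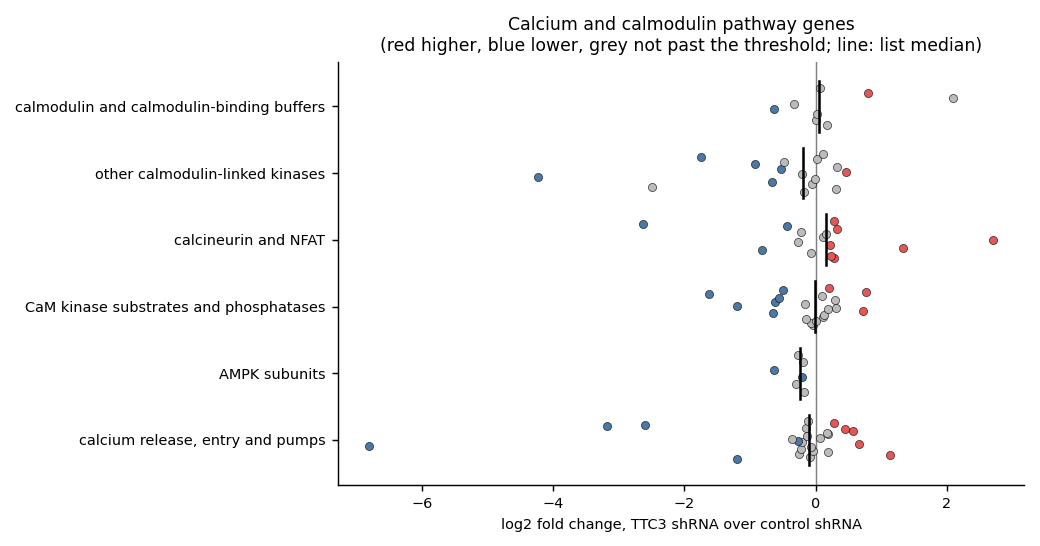
Log2 fold change (horizontal axis) of the 89 tested pathway genes in 6 lists, with red for higher and blue for lower past the adjusted p of 0.05, grey for the rest and a line at each list's median. Medians lie between -0.24 and 0.15, and each list except that of AMPK subunits holds genes past the threshold in both directions; the leftmost point is CACNA1B, whose position depends on the fit's prior count.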

How the data were processed

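RNA sequencing libraries of PC3 cells with control shRNA (3) or TTC3 shRNA (3) were assigned to groups from their titles, and table columns from library names. Trim Galore, STAR and StringTie with hg38 were used by the authors, per the submitters' processing notes. Not given in the sources used here were versions and counting settings. The authors deposited estimated counts per gene and transcript, in whole numbers and without scaling to depth. No rounding was needed.

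Positions and lengths came from GENCODE 29 on GRCh38 (hg38), matched by identifier without version for 58207 of 62700 genes, all 10 members included. The test was that of edgeR 4.0.16, run under R 4.3.3 (filterByExpr defaults, TMM, glmQLFit, glmQLFTest) over the 6 libraries without a block. CPM used TMM-scaled library sizes, with factors of 0.924 to 1.05. SE is the size of the log2 fold change divided by the square root of F. Depth was 143246356 to 155526861 counts, so counting error matters only for rare genes. On simulated counts for 24325 genes, 26.9% of 67 genes changed 1.5-fold, 64.2% of 67 changed 2-fold and 83.3% of 66 changed 4-fold were recovered. Of the calls, 5.69% were unchanged genes. Far fewer genes were changed there than the 33.6% that passed here, so these rates may not hold for this comparison.

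The level per length divided CPM by the transcript length, weighted by the transcript estimates, or by the mean length of coding transcripts for CAMK2A. Named genes were TTC3, all members, up to 4 genes per pathway list past the threshold by adjusted p, tested protein-coding genes within 500 kb of CAMK2N1 and the 5 nearest profiles. A gene that this rule names among the substrates is not reported here. CALM2, CALM3, RCAN3, NFATC2, NFAT5, ATP2A2, ATP2A3, PNCK, CAMK1G, CAMKK1, HDAC5 and HDAC7 were named after their values were seen. Members and lists were chosen with earlier results of these data known. Alternatives were other scalings (DESeq2 size factors, library totals, TMM leaving aside mitochondrial genes and the 20 highest), limma-voom (limma 3.58.1), DESeq2 1.42.0, other filters, removal of the length trend (lowess span 0.5), a replicate block and leaving out each library. Replicates differed by 3.85 to 32.4 times sampling noise (median chi-square over its null median), so each library counted as 1 replicate.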

Additional observations from a re-analysis of the deposited data

How the results depend on the processing

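Calls of CAMK2N1, CAMK2B, CAMK2D, CAMK1 and CAMK1D held under all 15 other settings. Signs turned for CAMK2N2 (-0.0802), MUL1 (-0.10), CDA (-0.21) and DDOST (-0.0037) with the length trend removed, and for CAMK2G (-0.0149), MUL1 (-0.0796) and HP1BP3 (-0.0045) with library totals alone. Those were small changes, and the cause was not tested. With library totals alone 2518 genes were higher and 5356 lower, and with the length trend removed 2952 and 5455, with a median of all genes at -0.17. At an adjusted p of 0.01, 1688 genes were higher and 2394 lower, and 7 and 12 pathway genes. With library totals alone 9 pathway genes were higher. Leaving out 1 library gave 1835 to 6674 genes higher and 2711 to 7065 lower, 7 to 30 and 13 to 35 pathway genes, and 3 to 6 and 2 to 3 members. The inhibitor to CaM kinase II ratio was 0.277 in control and 0.0506 in TTC3 shRNA cells without length scaling, a log2 ratio of -2.45 in place of -1.92. Leaving out 1 library gave ratios of 0.478 to 0.50 and 0.120 to 0.146. Same-numbered libraries deviated from their group means with correlations of 0.14, 0.12 and 0.03, so the numbers were not taken as pairs. Replicates 1 and 2 correlated best with their own number and replicate 3 did not. With the replicate block 3210 genes were higher and 3719 lower, 12 and 20 pathway genes and 3 and 3 members, CAMK2N1 kept its call, and the log2 ratio over same-numbered libraries was -1.95. CAMK2A, CAMK4, DCLK1, PNCK, CAMK1G, RCAN2 and FAM43B rest on at most 126 counts a library.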
